A study of Rattus norvegicus with 24 samples.

Results

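Cyp1a1 is 1 of the 32883 genes counted in rat lung in this series, and its messenger RNA was followed here in every rat. The row was found by its identifier, ENSRNOG00000019500, which the study pairs with the symbol Cyp1a1. The gene was picked with its level in all groups already known, so its levels and differences are given as a description, without a p-value. RNA was sequenced from lung homogenates of 24 wild-type male Sprague Dawley (SD) rats, 1 library per rat. In each of Weeks 1, 2 and 3 (days 7, 14 and 21), 4 rats had received PBS buffer as vehicle and 4 had received monocrotaline (MCT, 50 mg/kg). The agent was the only labelled difference between the groups of a week, and lungs were taken at each group's own time point, so a PBS group is the control of its own week only.

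Cyp1a1 is a cytochrome P450 of the endoplasmic reticulum that oxidises polycyclic aromatic hydrocarbons and other planar foreign compounds, and some fatty acids. Its transcription is switched on when the aryl hydrocarbon receptor (Ahr) binds a ligand, leaves its Hsp90 chaperones, enters the nucleus and pairs with Arnt. In rodent lung the gene is known as an inducible enzyme of endothelium and airway epithelium. MCT is a plant alkaloid that the liver converts to a reactive pyrrole, which injures the lung endothelium and is used to produce pulmonary hypertension in rats.

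In the Rnor_6.0 build the gene lies on chromosome 8 from 62472095 to 62478147, on the plus strand, in 7 exon intervals that sum to 2638 bases of a 6053-base span. It overlapped 0 other annotated genes, so its reads were not shared with an overlapping or antisense gene in that annotation.

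Levels are given in CPM, the counts of a library scaled to a total of 1000000 and corrected for composition by the trimmed mean of M values (TMM) over all 24 libraries. Total counts were between 19804731 and 32835200 per library. PBS Week 1 replicates 1 and 3 stood apart, with at most 20509197 counts where the other 22 libraries held at least 28357609, and with 14706 and 12491 genes at 10 counts or more against 15614 to 16428 in the others. Results of Week 1 were therefore also computed without that pair. No source states whether the numbers mark litters or days, and p-values measure only the spread between the rats of a group.

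In rats given PBS, Cyp1a1 was a well expressed lung gene. The PBS rats of Week 1 stood at 189, 183, 114 and 145 CPM, those of Week 2 at 109.7, 542, 144 and 213 CPM, and those of Week 3 at 134, 129, 235 and 195 CPM. The means were 158 ± 34.9, 252 ± 198 and 173 ± 50.8 CPM (SD, n = 4 each). Per kilobase of exon, the level of Cyp1a1 exceeded that of 93.9% to 99.2% of the genes in the table in every PBS library. That base includes genes with few or no counts. The ranges of the 3 PBS groups overlapped in every pairing, and 1 rat, replicate 2 of Week 2, was above all the others.

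The log2 difference between PBS groups was 0.74 for Week 2 over Week 1 (SE 0.43), -0.56 for Week 3 over Week 2 (SE 0.43) and 0.18 for Week 3 over Week 1 (SE 0.43). Without PBS Week 2 replicate 2 the first became 0.05 and the second turned to 0.12. Without PBS Week 3 replicate 3 the last turned to -0.04. The level in control lungs therefore had no stable order by week, and the difference between weeks cannot be told apart from the day of handling.

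One week after MCT the level was in the control range. The MCT rats of Week 1 stood at 345, 144, 139 and 124 CPM (mean 188 ± 105, SD, n = 4). Replicate 1 lay above all PBS rats of that week, and the other 3 lay inside their range. In that week all 4 MCT values were below all 4 PBS values for 1.76% of the genes tested. The log2 fold change of MCT over PBS was 0.24 (SE 0.36), and it turned to -0.24 without MCT Week 1 replicate 1. In rank, Cyp1a1 was 11477 from the lowest of 15658 genes tested. Its named neighbours there were Fmr1, Dimt1 and Gngt2 below and RGD1309540, Nlrx1 and Bbs7 above, all at log2 fold changes of 0.24.

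In Week 2 the MCT rats stood at 24.6, 12.03, 122 and 71.7 CPM (mean 57.7 ± 50.3, SD, n = 4), which was 22.9% of the PBS mean of that week. Replicates 1, 2 and 4 were below all 4 PBS rats, and replicate 3 was above PBS replicate 1, so the groups overlapped, where 10.3% of genes tested had all 4 MCT values below all 4 PBS values. The log2 fold change was -2.14 (SE 0.68), the lowest but 43 of 16108 genes tested. It was -1.44 without PBS Week 2 replicate 2 and -2.81 without MCT Week 2 replicate 3. The named genes nearest in rank were RGD1562420 (-2.21), Espn, an actin bundler (-2.19), and Kcnk2, a potassium channel (-2.19), below it. Above it were Tnfsf10, which encodes the death ligand TRAIL (-2.05), Gckr, the glucokinase regulator (-2.004), and Ackr4, a chemokine scavenger (-1.96). Of these 6, Tnfsf10 alone had a PBS level like that of Cyp1a1, at 244 CPM.

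In Week 3 the MCT rats stood at 13.4, 3.31, 2.38 and 2.23 CPM (mean 5.33 ± 5.41, SD, n = 4), which was 3.08% of the PBS mean. These values rest on 403, 108, 76 and 69 counts, against 3585 to 6607 counts in the PBS rats of that week. All 4 MCT rats were below all 4 PBS rats, as they were for 15.4% of all genes tested in Week 3, and even the highest MCT rat was far under the lowest PBS rat. The log2 fold change was -5.05 (SE 0.57), a level 33.1-fold lower, and it was -6.04 without MCT Week 3 replicate 1. Per kilobase, Cyp1a1 now exceeded 55.4% to 68.2% of the genes in the table. Of those 32883 genes, only 16301 to 16428 held 10 counts or more in these libraries. In bulk RNA, fewer cells of a type and less RNA per cell cannot be told apart.

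**Figure D1:**
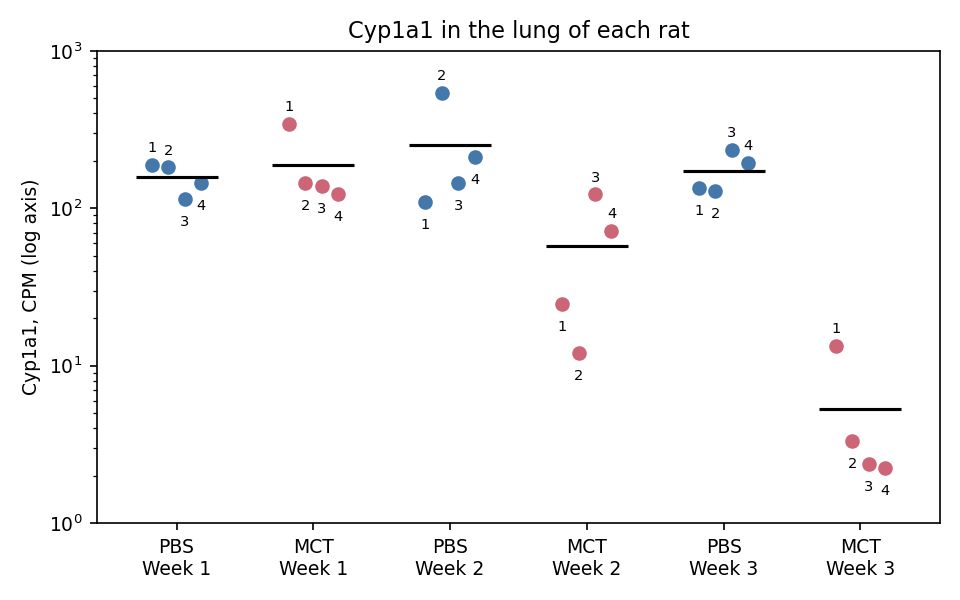
Cyp1a1 in CPM (log axis) in each of 24 rats, with the replicate number beside each point and a black line at the mean of 4 rats. PBS and MCT overlap in Weeks 1 and 2, and in Week 3 the MCT rats sit between 2.23 and 13.4 CPM, all under the PBS rats.

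By rank in Week 3 Cyp1a1 was number 3 from the lowest of 16138 genes tested. Both genes below it carry no symbol here, had PBS means of 0.789 and 0.615 CPM and were at 0 in all MCT rats, so Cyp1a1 was the lowest of the genes with counts in both groups. The named genes next above it were Kcnk2 (-4.27, SE 0.37), Mif, a macrophage cytokine (-4.13, SE 1.41), and Lrrn1, a leucine-rich repeat membrane protein (-4.08, SE 0.34). Their PBS means were 22.6, 13.3 and 31.1 CPM, all under the 173 CPM of Cyp1a1.

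**Figure D2:**
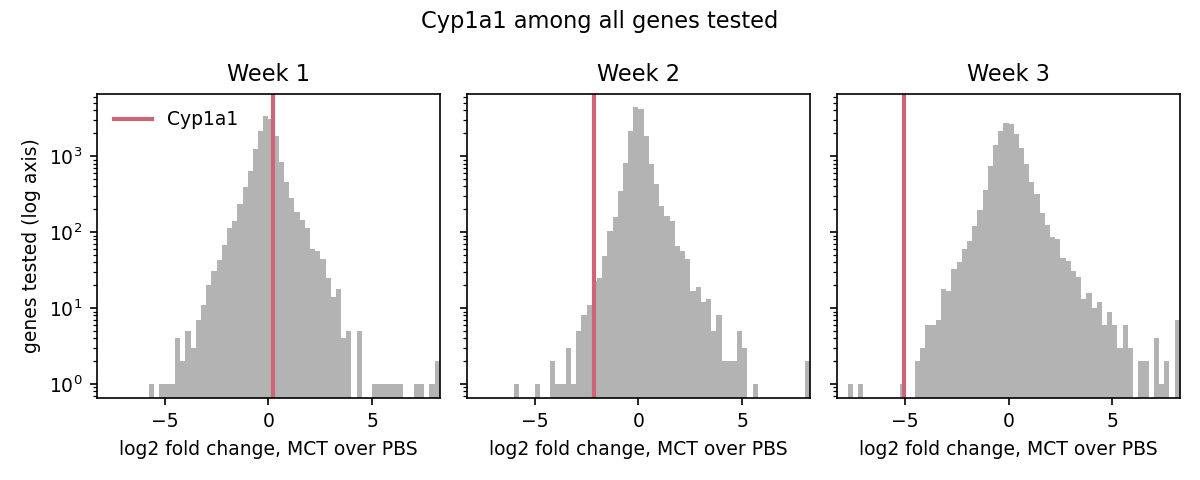
Number of genes (log axis) by log2 fold change of MCT over PBS in each week, with Cyp1a1 as a vertical line and changes beyond 8 gathered in the end bars. The line moves from inside the main body of genes in Week 1 (0.24) to its lower tail in Week 2 (-2.14) and past nearly all genes in Week 3 (-5.05).

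Among the MCT rats alone, the mean was 188 CPM in Week 1, 57.7 CPM in Week 2 and 5.33 CPM in Week 3, with ratios of 3.25 and 10.8 between them. The rats of Weeks 1 and 2 did not overlap, by 124 against 122 CPM, and those of Weeks 2 and 3 did, since MCT Week 2 replicate 2 (12.03 CPM) was under MCT Week 3 replicate 1 (13.4 CPM). In order of the mean, the groups were PBS Week 2, MCT Week 1, PBS Week 3, PBS Week 1, MCT Week 2 and MCT Week 3. The ranges of every neighbouring pair in that order overlapped. These differences between groups of rats of different weeks had no control of their own and were not tested.

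Cyp1a1 varied strongly among rats of 1 group. Its SD of log2 CPM was 1.01 in PBS Week 2, 1.504 in MCT Week 2 and 1.19 in MCT Week 3, where the median over 17206 genes was 0.20, 0.22 and 0.24. Over the MCT groups its SD was 1.18, larger than that of 99.9% of 4406 genes of like mean over all 24 libraries. In the PBS groups of Weeks 2 and 3 it was 0.77, larger than in 99.5% of them. The match was not made within the MCT groups, and in MCT Week 3 Cyp1a1 lay far under its mean over 24 libraries. In PBS Week 1 it was only 0.34, below the median of 0.95 for all genes in that group, which holds the pair of shallow libraries.

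In 3 libraries Cyp1a1 stood well above the rest of the group. PBS Week 2 replicate 2 lay 1.85 log2 units above the mean of the other 3 rats of its group, and 156 of 17206 genes had a larger excess there. In that rat Ahr was 0.09 and the median of the endothelial markers 0.04 above the others. MCT Week 1 replicate 1 lay 1.35 above its group (491 genes larger), with Ahr 0.05 above. MCT Week 3 replicate 1 lay 2.34 above (79 genes larger), with Ahr 0.67 above and the endothelial markers 0.05 below the others. The part of Ahr or of cell make-up in these excesses was not tested.

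Of 14 genes listed for the Ahr pathway, 3 carry a symbol here (Ahr, Hsp90aa1 and Hsp90ab1), and the rest, Cyp1a2 and Cyp1b1 among them, were not analysed here. Symbols come from the genes that the study itself called changed in these libraries, so a count within a named list is not independent of the comparison. A gene was called where the edgeR quasi-likelihood test gave a Benjamini-Hochberg adjusted p under 0.05 over all genes tested and the fold change exceeded 1.5.

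Ahr, the receptor that drives Cyp1a1, was lower in Week 3 and not in Week 2. In Week 3 the PBS rats stood at 221, 346, 423 and 246 CPM and the MCT rats at 228, 128, 155 and 149 CPM. MCT replicate 1, the rat with the most Cyp1a1 in its group, was also the highest in Ahr and the only one inside the PBS range. The log2 fold change was -0.93 (SE 0.23, edgeR adjusted p = 0.0111), and the call ended when all 24 libraries shared 1 fit. In Week 2, when Cyp1a1 stood at -2.14, Ahr was at 262, 216, 165 and 194 CPM in PBS and 227, 196, 197 and 233 CPM in MCT rats, a log2 fold change of 0.03 (SE 0.13). The difference between the Week 3 and Week 2 fold changes of Ahr was -0.93 (SE 0.28, edgeR adjusted p = 0.0335), and leaving out single libraries ended that call in 10 of 16 cases.

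The Hsp90 chaperones that hold the receptor in the cytosol were not called in any week. For Hsp90ab1 the log2 fold change was -0.34, then -0.18 and then -0.28. For Hsp90aa1 it was 1.19, -0.56 and -0.05, with 62.1 CPM in MCT and 27.1 CPM in PBS rats of Week 1. The Week 1 value of Hsp90aa1 passed only with DESeq2 and without PBS Week 1 replicates 1 and 3.

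Most markers of endothelium were lower in the weeks in which Cyp1a1 was. Against this, Nos3 (0.16 and 0.43) and Apln (0.31 and 0.18) had log2 fold changes above 0 in Weeks 2 and 3. Emcn was at 0.48 in Week 2 and at -0.65 in Week 3. Of 32 listed markers, 21 carry a symbol and were tested, and their median log2 fold change was -0.20, -0.63 and -1.18 in Weeks 1, 2 and 3, where the median of all genes was -0.04, -0.002 and 0.007. The other listed markers have no symbol in the study's list of changed genes. The 21 were thus selected for change in these libraries, and their median and counts are not those of an unselected panel. In Week 1, 0 were called in either direction, where 0.0192% of all genes were called down and 0.0703% up. At an unadjusted p under 0.05 with the same fold, 4 were down and 2 up, DESeq2 called 2 down, limma-voom called 1 down, and all 24 libraries in 1 fit gave 4 down and 2 up. Without PBS Week 1 replicate 3, edgeR called 1 down, and without replicates 1 and 3 together it called 2 down. In Week 2, 11 were called down and 0 up, against 3.43% and 6% of all genes, and with all 24 libraries in 1 fit 6 were called down. In Week 3, 18 were called down and 0 up, against 11% and 11.1%. At an unadjusted p under 0.05 with the same fold, 0 were up in Week 2 or Week 3 as well, and 0 were called up in those weeks by DESeq2 or limma-voom.

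The markers that moved most in Week 3 were Tek, the angiopoietin receptor, and Calcrl, the adrenomedullin receptor. Tek stood at 682, 713, 818 and 724 CPM in PBS and at 59.3, 56.3, 75.1 and 70.8 CPM in MCT rats, so the groups were wide apart and the MCT rats close together. Its log2 fold change was -3.505 (SE 0.13), and that of Calcrl -3.46 (SE 0.16). Ptprb, a phosphatase that restrains Tek, followed at -2.20 (SE 0.15). Aplnr, the apelin receptor, stood at -1.59, Thbd, the thrombomodulin of the vessel surface, at -1.54, and Sox17, an arterial transcription factor, at -1.52.

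Cyp1a1 lay lower than each of these markers in both later weeks. In Weeks 2 and 3 its log2 fold change was below that of all 21, whereas in Week 1 it was above 18 of them. The Week 2 order depended on 1 rat. Tek stood at -1.85 (SE 0.08) in that week, against -2.14 (SE 0.68) for Cyp1a1. Without PBS Week 2 replicate 2 Cyp1a1 was at -1.44, above Tek, which stayed at -1.88 to -1.80 with any library left out. Summed over the 21 markers, the level in Week 3 was 9885 to 10893 CPM in PBS and 3583 to 4066 CPM in MCT rats, and 0 of the 21 were at 0 in any library. Expressed per 1000 CPM of the summed markers, Cyp1a1 stood at 12.6, 11.8, 22.2 and 19.7 in PBS and at 3.505, 0.925, 0.586 and 0.615 in MCT rats of Week 3. The groups did not overlap on that scale. This is no separate test, since Cyp1a1 was picked with its levels known and the markers had been selected for change. In Week 2 the same ratio was 9.54, 49.5, 13.7 and 19.2 in PBS and 3.73, 1.99, 18.3 and 9.995 in MCT rats, which overlapped. A lung homogenate does not show which cells hold the transcript, and the part of the markers' fall in that of Cyp1a1 was not tested.

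**Figure D3:**
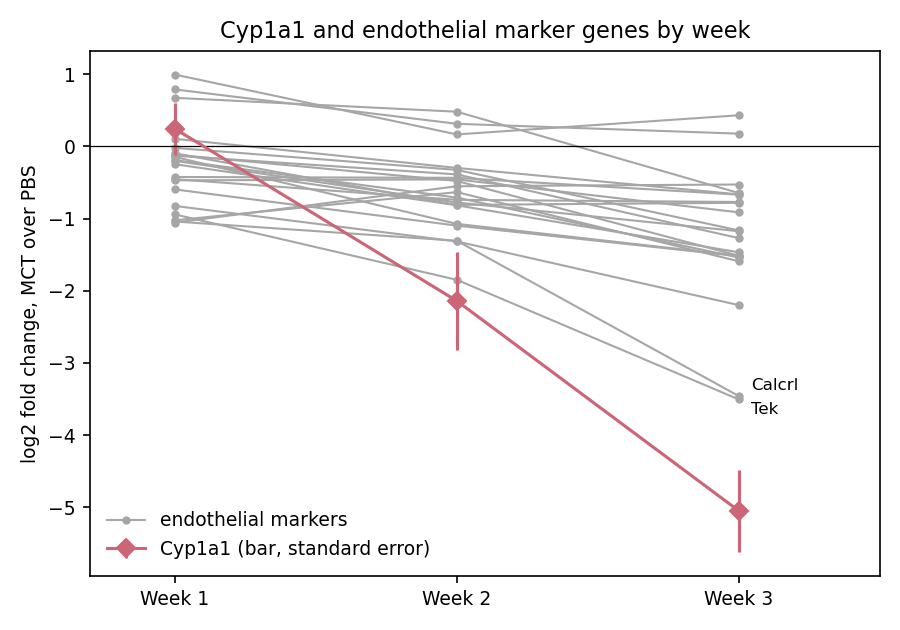
Log2 fold change of MCT over PBS by week for Cyp1a1 (diamonds, bars give the standard error) and 21 endothelial marker genes (grey). Cyp1a1 is above most markers in Week 1 (0.24) and under all of them in Weeks 2 (-2.14) and 3 (-5.05), where Tek is the lowest marker at -3.505. Without PBS Week 2 replicate 2, Cyp1a1 is at -1.44 in Week 2 and above Tek.

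Other cell types moved as well. In Week 3, 4 of 6 markers of club cells, the airway cells rich in P450 enzymes, were called down, with a summed level of 12422 to 19643 CPM in PBS and 5157 to 9802 CPM in MCT rats. The club cell markers Cyp2f4, Cyp4b1, Cyp2b1 and Aldh1a1 are also counted in the enzyme list below. Cyp4b1, Cyp2b1 and Aldh1a1 were among those called. Of 5 macrophage markers 3 were called up, with 357 to 534 CPM in PBS and 846 to 1118 CPM in MCT rats. Both smooth muscle markers with a symbol were called up. Listed macrophage and smooth muscle markers without a symbol are absent here too. Over all genes in that week, 11% were called down and 11.1% up. Their part in the result for Cyp1a1 was not tested.

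Other genes of the enzyme families that handle foreign compounds moved in both directions. They were listed by the start of their symbol, and some act on the body's own compounds, such as Cyp26b1, Cyp7b1 and Hmox1. The list holds 39 genes with a symbol, all tested, of the P450, flavin monooxygenase, glutathione transferase, aldehyde dehydrogenase, aldo-keto reductase and related families. Family members outside the study's list of changed genes carry no symbol and are absent. The 39 were thus selected for change in these libraries, and the shares of all genes given beside them are not a like base. In Week 1, 0 were called in either direction by edgeR. At an unadjusted p under 0.05 and with a fold change over 1.5, 7 were down and 1 up, DESeq2 called 4 down (Cyp2e1, Fmo1 and Fmo2 among them), limma-voom called 1, and edgeR called 1, Fmo2 (-1.54), without PBS Week 1 replicates 1 and 3. In Week 2, 13 were called down and 3 up, against 3.43% and 6% of all genes, and with all 24 libraries in 1 fit 4 were called down. In Week 3, 19 were called down and 8 up, against 11% and 11.1% of all genes, and that fit called 5 up. The median log2 fold change was -0.51, -0.35 and -0.72. None of the 39 had a lower value than Cyp1a1 in Week 2 or Week 3, whereas 34 did in Week 1. In Week 2 this depended on PBS replicate 2. Without that rat Cyp1a1 was at -1.443, and Fmo1 was at -1.447 or lower with any library left out.

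The flavin monooxygenases Fmo1 and Fmo2, which oxidise nitrogen and sulphur compounds, were among the lowest in both later weeks. Fmo1 stood at 219, 197, 199 and 219.6 CPM in PBS and at 50.0, 48.6, 103 and 78.6 CPM in MCT rats of Week 2, and at 326, 316, 195 and 228 CPM against 38.9, 30.0, 35.0 and 29.2 CPM in Week 3. The groups did not overlap in either week. The log2 fold change of Fmo1 was -1.58 (SE 0.21) and then -3.02 (SE 0.19, edgeR adjusted p = 4.35e-06), and that of Fmo2 was -1.41 (SE 0.19) and -1.98 (SE 0.31). Unlike Cyp1a1 in Week 1, they already stood at -1.01 and -1.46, which did not pass the test.

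Cyp26b1, the P450 that clears retinoic acid, was the P450 nearest to Cyp1a1 in Week 3. In Week 3 it stood at 91.5, 55.8, 52.2 and 80.7 CPM in PBS and at 3.66, 7.24, 14.9 and 10.1 CPM in MCT rats, with no overlap. MCT replicate 1, the highest of its group in Cyp1a1, was the lowest in Cyp26b1. Its log2 fold change was -1.27 (SE 0.29) in Week 2, a call that ended with robust dispersion or 1 fit of 24 libraries, and -2.98 (SE 0.37, edgeR adjusted p = 0.000269) in Week 3. The aldo-keto reductases Akr1c14, a steroid dehydrogenase, and Akr1c15 stood at -1.88 (SE 0.19) and -1.70 (SE 0.11) in Week 3. In Week 2 Akr1c15 was at -0.85, and Akr1c14 at -0.59, a call that ended when PBS replicate 1 (-0.58), PBS replicate 2 (-0.57), MCT replicate 1 (-0.48) or MCT replicate 2 (-0.52) was left out.

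Cyp2e1, which oxidises ethanol and other small molecules, was at 0.04 (SE 0.33) in Week 2 and -1.76 (SE 0.34) in Week 3. Cyp2d4 was at -1.24 and -0.86, and its Week 3 call ended without PBS replicate 2 (-0.74) or MCT replicate 2 (-0.76). Cyp2a3, a P450 of the rat airways, was at -1.21 and -1.47, and its Week 3 call ended without MCT replicate 3 (-1.23) or 4 (-1.43). Cyp2b2 was at -1.49 (SE 0.44) in Week 2 from a PBS mean of 4.97 CPM, a call that ended when PBS replicate 1 (-1.40), 2 (-1.35) or 3 (-1.55) was left out, and likewise for MCT replicates 2 (-1.57) and 3 (-1.40). Reads of Cyp2b2 may also be split with its near copy Cyp2b1. With all 24 libraries in 1 fit, the calls of Cyp2a3, Cyp2b2 and Cyp2d4 in Week 2, and of Cyp2a3 and Cyp2d4 in Week 3, ended.

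Against this, Hmox1, the haem oxygenase that breaks down the cofactor of the P450 enzymes, rose most. It stood at 24.9, 30.1, 48.6 and 38.2 CPM in PBS and at 174, 125, 80.4 and 99.9 CPM in MCT rats of Week 2, and at 20.7, 26.9, 24.03 and 41.3 CPM against 202, 221, 237 and 267 CPM in Week 3. The groups did not overlap in either week. Its log2 fold change was 1.75 (SE 0.25) and then 3.02 (SE 0.21, edgeR adjusted p = 8.44e-06). Adh1, an alcohol dehydrogenase, was at 0.96 and 1.33, and Cyp7b1, an oxysterol hydroxylase, at 1.56 and 0.79. Aldh3b1 (1.00), Gsto1 (0.84) and Aldh16a1 (0.66) rose in Week 3. The calls of Adh1 in Week 2 and of Cyp7b1 and Gsto1 in Week 3 ended in the fit of 24 libraries.

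**Figure D4:**
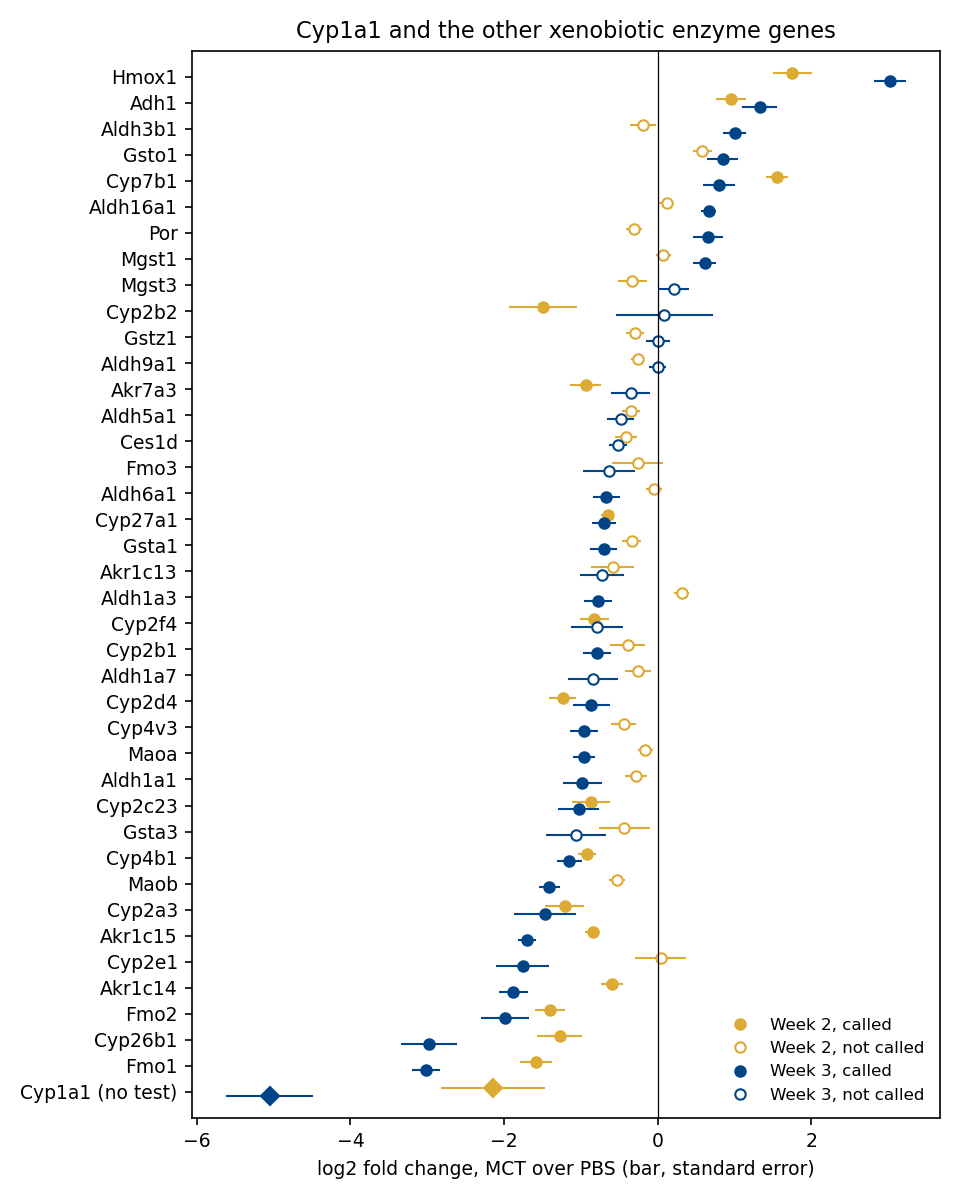
Log2 fold change of MCT over PBS (bars give the standard error) in Weeks 2 and 3 for Cyp1a1, which was not tested, and 39 other enzyme genes, filled where called. Cyp1a1 lies under all of them, Fmo1 (-3.02) and Cyp26b1 (-2.98) come next in Week 3, and Hmox1 (3.02) is at the other end. In Week 2 Cyp1a1 is not under Fmo1 once PBS Week 2 replicate 2 is left out.

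The fold change differed between Week 3 and Week 2 for 13 of the 39 enzymes by a test of the difference itself in the 16 libraries of those weeks. It was lower in Week 3 for 8, where 9.38% of all genes were, and higher for 5, where 7.4% were. Fmo1 (-1.42), Cyp26b1 (-1.68), Cyp2e1 (-1.78), Akr1c14 (-1.27) and Akr1c15 (-0.84) were among the 8, and Aldh3b1 (1.21), Hmox1 (1.28) and Aldh16a1 (0.57) among the 5.

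Over all 24 libraries, the named genes with levels most like those of Cyp1a1 were Tspan7, a tetraspanin, Sox7, a transcription factor of endothelium, Thbd, Cytl1, a secreted cytokine-like protein, and Xpnpep2, a membrane aminopeptidase. Ramp2, the partner of Calcrl, Tspan8, Akr1c14, Ccdc68 and Cav1, the scaffold of caveolae, came next. Pearson's r of log2 CPM was between 0.87 and 0.91 for these 10, Spearman's rho between 0.56 and 0.78, and 0.459% of all genes had an r over 0.8. The 10 were drawn only from 3274 genes with a symbol, which come from the study's list of changed genes. Of those 3274, 73 had an r over 0.8. Chosen by rho instead, 1 of the 10 stayed in the list. Without the 2 libraries farthest from the median of Cyp1a1, MCT Week 3 replicates 3 and 4, r was between 0.78 and 0.87, and without the shallow PBS Week 1 replicates 1 and 3 it was between 0.87 and 0.92. All points share library depth and the steps between groups, and r is a description.

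The likeness was high over the MCT libraries, which include the steps between weeks, and lower within groups and over the PBS libraries. Within groups, after each group's mean was removed, r of the 10 was between -0.04 and 0.59, and over the 12 PBS libraries alone between -0.11 and 0.37. Over the 12 MCT libraries it was between 0.88 and 0.97, but there 8.63% of all genes exceeded 0.8, as did 571 of the 3274 with a symbol. The named genes most like Cyp1a1 over the MCT libraries were Slc29a1, a nucleoside transporter, Cadps2, Tspan13, Stk32b and Polr2m, at r of 0.97 to 0.98. Over the PBS libraries they were RT1-CE10, a class I histocompatibility gene whose reads may be split among near copies, Acap1, Pik3ip1, RT1-T24-4 and Hap1, at r of 0.58 to 0.73. Acap1 had an r of 0.63 over the PBS and -0.90 over the MCT libraries.

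**Figure D5:**
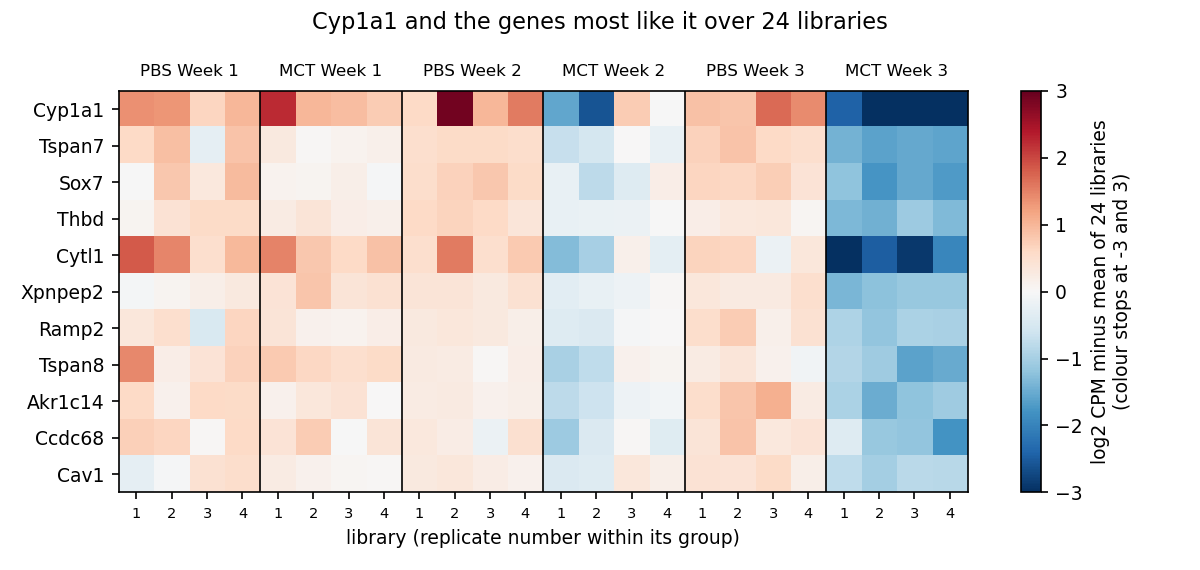
Log2 CPM of Cyp1a1 and the 10 named genes most like it, as the difference from each gene's mean over 24 libraries (columns, by group and replicate, colours stop at -3 and 3). All 11 genes are at their lowest in the MCT Week 3 columns, and in PBS Weeks 2 and 3 Cyp1a1 varies where most of the others are even.

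The 4 MCT rats of Week 2 were also set side by side. Their libraries as a whole were closer within the pairs 1 and 2 and 3 and 4 than between them. Chi-square over degrees of freedom was 23.65 and 30.36 within these pairs and 37.81 to 64.18 between them. An order by these pairs is thus not particular to Cyp1a1, and the share of all genes that had it was not counted. Replicates 3 and 4, with 122 and 71.7 CPM of Cyp1a1, were also the higher pair in Cav1 (1787 and 1601 CPM, against 1041 and 1079 CPM in replicates 1 and 2) and in Tspan7 (503 and 427 against 309 and 344 CPM). Both had been chosen for likeness over libraries that include these. Fmo1, given above, had the same order of pairs and Hmox1 the opposite one, whereas Tek differed little among the 4 rats (138, 135, 149 and 135 CPM) and Cyp26b1 was highest in replicate 2 (93.9 CPM) and lowest in replicate 3 (28.2 CPM). With 4 rats this order was not tested.

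The genes beside Cyp1a1 on the chromosome changed far less. Within 100000 bases on either side lie 10 other annotated genes, of which 5 had enough counts to be tested. Their log2 fold changes were -0.54 to -0.18 in Week 2, all under the fold threshold of 1.5, and -0.86 to 0.36 in Week 3, when 1 was called. The called gene, named after its value was seen, was Arid3b, a DNA-binding protein whose nearer end is 91381 bases away (-0.86, edgeR adjusted p = 0.00168). The nearest annotated gene, 3993 bases downstream, was at -0.16 in Week 3, and the nearest upstream gene, 13794 bases away, had at most 8 counts in any library.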

How the data were processed

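The authors used HISAT2 2.0.5 for alignment and featureCounts 2.0.3 for counting, per the labels, and the deposited values are raw counts per gene, in whole numbers. Gene positions in the deposited table follow Rnor_6.0. The library kit marks strand, but whether counting used it, how multi-mapped reads were handled and which annotation release was used are not given in the sources used here. The study tested with DESeq2 1.32.0, none of whose values were used. All value columns had a sample.

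Groups came from the sample labels. Each week's 8 libraries were fitted in edgeR 4.0.16 (R 4.3.3): filterByExpr, TMM scaling, quasi-likelihood test, Benjamini-Hochberg adjustment over all genes tested. A standard error is the log2 fold change divided by the square root of F. PBS groups were compared in 1 fit of 12 libraries, and the Week 3 and Week 2 fold changes in 1 fit of 16. Log2 CPM used a prior count of 2. The script was tested on simulated data. Symbols for 3275 genes came from the study's list of changed genes. Cyp1a1 and all gene lists were chosen with earlier results of these data known. Named were list members called in Week 1, the 6 largest changes called in each direction in Weeks 2 and 3, all Ahr pathway members with a symbol, the 6 endothelial markers that changed most in Week 3, the 3 nearest genes by rank and the 10 (24 libraries) or 5 (12 libraries) most like genes. Alternatives were RLE scaling, no filter, a floor of 10 counts in all libraries, robust dispersion, limma-voom (limma 3.58.1) with quality weights, DESeq2 1.42.0, 1 fit of 24 libraries, the replicate number as a block, each library left out, and, added after seeing the data, PBS Week 1 replicates 1 and 3 left out together, r without the 2 libraries farthest in Cyp1a1, and all settings of the Week 3 against Week 2 test. Of 36 pairs of libraries within groups, 0 held identical values (smallest chi-square over degrees of freedom 23.65). Sequences are not shown.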

Additional observations from a re-analysis of the deposited data

Results flagged for a closer look

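In 2 of 6 groups 1 rat stood apart in Cyp1a1 by Dixon's test at its critical value for 4 samples: MCT Week 1 replicate 1 at 345 CPM and MCT Week 3 replicate 1 at 13.4 CPM, both above the other 3 rats. Among Ahr, Fmo1, Cyp26b1, Hmox1, Akr1c14, Cav1 and Tspan7, PBS Week 1 replicate 2 stood apart in Akr1c14, at 106.9 CPM and below the others. The other named genes are not listed here. Some of them also held a rat far from its group, such as Cyp2a3 in PBS Week 2 (13.6, 25.6, 12.9 and 12.7 CPM). Chance alone marks about 1 in 20 groups.

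For the following genes the log2 fold change of MCT over PBS in Week 3 differed from that in Week 2 by the edgeR test of the difference (16 libraries, adjusted p under 0.05). It was lower in Week 3 by these differences: Ahr -0.93, Akr1c14 -1.27, Akr1c15 -0.84, Cyp26b1 -1.68, Cyp2e1 -1.78 and Fmo1 -1.42. It was higher in Week 3 for Aldh16a1 (0.57), Aldh3b1 (1.21) and Hmox1 (1.28). Leaving out 1 library at a time ended the call in 10 of 16 cases for Ahr, 8 for Cyp26b1, 7 for Cyp2e1 and 1 for Hmox1, which was PBS Week 2 replicate 3 (1.09), with values of -1.12 to -0.73 for Ahr, -2.04 to -1.28 for Cyp26b1 and -2.06 to -1.48 for Cyp2e1. The replicate block also ended the calls of Cyp26b1 and Cyp2e1, and robust dispersion that of Cyp26b1.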

How the results depend on the processing

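The lower level of Cyp1a1 in MCT rats of Weeks 2 and 3 kept its direction in all settings run. Leaving out 1 library gave log2 fold changes of -0.24 to 0.38 in Week 1, -2.81 to -1.44 in Week 2 and -6.04 to -4.77 in Week 3, where -6.04 came without MCT Week 3 replicate 1. Between PBS groups it gave 0.05 to 0.99 (Week 2 over Week 1), -0.81 to 0.12 (Week 3 over Week 2) and -0.04 to 0.30 (Week 3 over Week 1). The enzyme list in Week 1 had 0 genes called, but 4 down with DESeq2, 1 down with limma-voom, 1 down without PBS Week 1 replicates 1 and 3 together, and 6 down and 1 up with all 24 libraries in 1 fit. That fit also gave 4 down in Week 2, where the main count was 13, and 5 up in Week 3, where it was 8. The cause was not tested. Leaving out 1 library gave 10 to 13 down and 3 to 4 up in Week 2, 16 to 20 down and 6 to 8 up in Week 3, and 0 in Week 1. Ranked by Spearman's rho, 1 of the 10 genes most like Cyp1a1 stayed. Deviations of same-numbered rats correlated above 0.1 in 2 of 12 pairs (from -0.12 to 0.27), and 4 of 24 rats correlated best with their own number. These values cannot show whether same-numbered rats also shared a litter or a day. With the replicate block the log2 fold change of Cyp1a1 was 0.14, -2.18 and -5.39 in Weeks 1, 2 and 3, and 11 enzymes were called down in Week 2 and 20 in Week 3. Of 2080 values of single genes and of the endothelial count, 1976 kept their call. The shallow PBS libraries limit Week 1, and the 69 to 403 counts of MCT Week 3 limit the precision of its fold change.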
